A study of Mus musculus with 10 samples.

Results

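The genes described here are the muscle regulatory factors Myod1, Myog, Myf5 and Myf6, the antagonist Msc, the Mef2 factors Mef2a, Mef2c and Mef2d, and Pax7. They were chosen by name, as the bead array probes annotated to any of these 9 symbols. Of the 9 genes, 8 had a probe, 13 probes in all, among 45281 probes on the array, and 19057 gene symbols are annotated there. Mef2a was not analysed here, because no probe carried its symbol in the annotation used. The RNA came from IM2 myotubes, mouse muscle cells that had been kept under fusion conditions for 4 days, and each culture expressed the poly(A) binding protein PABPN1 with a FLAG tag. D7E myotubes (3 arrays) carried a mutant PABPN1-FLAG whose level the labels call similar to WTA, read here as the wild type line of the DWTA arrays. DWTD myotubes (3 arrays) expressed the wild type PABPN1-FLAG at what the labels call a low level. DWTA myotubes (2 arrays) expressed the wild type protein without that qualifier. By the labels, D7E and DWTD therefore differ both in the form of the protein and in its level. The labels used here name no promoter, clone or further treatment, and they do not say whether arrays of a group came from separate cultures. The p-values therefore cover array-to-array spread only, and that spread may be technical. The study's design text speaks of triplicates, and a DWTA replicate 3 was not analysed here. The D7E over DWTA and DWTD over DWTA comparisons share the same 2 DWTA arrays.

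The muscle regulatory factors are basic helix-loop-helix proteins that pair with E proteins and bind E-boxes in the promoters of muscle genes. Myf5 and Myod1 commit cells to the muscle lineage and Myog drives terminal differentiation, while Myf6 (also called MRF4) is expressed late, in myotubes and fibres. The Mef2 proteins are MADS-box factors that act together with them. Msc (musculin, or MyoR) is a related factor that competes for E-boxes and represses myogenic transcription, and Pax7 marks satellite cells, the stem cells of muscle.

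Promoter windows from RefSeq (build GRCm38.p6, from 250 bases before the start of a gene to 50 after it) were found for 6 of the 9 genes. The 3 below belong to the factor that drives differentiation, to the Mef2 gene among the members with a signal on all arrays, and to the early factor with almost none. Capitals mark E-boxes (CANNTG) and the letters CTANNNNTA, the outer part of the Mef2 binding motif, read on both strands. The Myog window is chr1:134289754-134290053 on the plus strand, the Mef2c window, the first of 3 for that gene, is chr13:83503784-83504083 on the plus strand, and the Myf5 window is chr10:107486085-107486384 on the minus strand, each printed 5′ to 3′ along its gene.
Myog: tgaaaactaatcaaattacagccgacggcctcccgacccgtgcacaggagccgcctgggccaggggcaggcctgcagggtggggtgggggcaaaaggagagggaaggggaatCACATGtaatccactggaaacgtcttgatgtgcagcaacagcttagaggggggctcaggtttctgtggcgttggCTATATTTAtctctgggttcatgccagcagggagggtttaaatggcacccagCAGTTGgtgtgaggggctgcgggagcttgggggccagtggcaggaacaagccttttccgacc
Mef2c: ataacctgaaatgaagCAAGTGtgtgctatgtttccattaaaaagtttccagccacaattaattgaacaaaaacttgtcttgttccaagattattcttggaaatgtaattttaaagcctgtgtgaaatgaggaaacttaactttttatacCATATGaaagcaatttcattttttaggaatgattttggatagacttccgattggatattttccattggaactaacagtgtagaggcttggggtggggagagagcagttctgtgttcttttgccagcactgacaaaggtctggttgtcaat
Myf5: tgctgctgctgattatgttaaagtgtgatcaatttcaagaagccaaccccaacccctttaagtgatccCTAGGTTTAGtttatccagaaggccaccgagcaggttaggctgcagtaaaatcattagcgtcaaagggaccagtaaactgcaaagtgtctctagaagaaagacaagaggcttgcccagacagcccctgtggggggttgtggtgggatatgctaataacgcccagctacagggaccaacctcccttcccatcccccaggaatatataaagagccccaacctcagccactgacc

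The Myog window held 2 E-boxes, CACATG from position -138 and CAGTTG from position -12, and CTATATTTA from position -64, counted from the gene's start. The printed Mef2c window held 2 E-boxes and no CTANNNNTA match. Of the Mef2c windows not printed, the second held neither, and the third held 1 E-box and CTAACGATA from position -191. The Myf5 window held no E-box, and its 2 CTANNNNTA matches overlap on opposite strands. Over all 32851 windows of this length, 72.31% held an E-box, 39.6% held 2 or more, and 21.04% held CTANNNNTA. The stricter Mef2 consensus was searched first and had no match in the 3 printed windows, against 3.187% of all windows. CTANNNNTA was added after the Myog window had been read, so its match there is not an independent observation. These matches describe the letters of the windows, and no binding was measured.

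Levels are log2 signals after background correction and quantile normalization of all 8 arrays on a single scale. A probe was tested if it stood above background (detection p-value under 0.05) on at least 2 arrays, which 18815 probes and 9 of the 13 member probes did. Those 9 belong to Myod1, Myog, Myf6, Msc and Mef2c. The 4 that did not are the probes of Myf5, Mef2d and Pax7 and one of the 5 Mef2c probes. Levels of different probes are not compared with each other. In these RNA samples from whole cultures, fewer cells expressing a gene and less RNA per cell cannot be told apart.

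No member probe passed an adjusted p of 0.05 in any of the 3 comparisons (limma, Benjamini-Hochberg over all 18815 probes). In DWTD over DWTA the background of probes called was 1.43%, in D7E over DWTA 0.569%, and in D7E over DWTD 0.0266%. At an unadjusted p under 0.05, 3 of the 9 member probes stood out in DWTD over DWTA, where 14.1% of all probes did. The count was 3 of 9 in D7E over DWTA, against 12.4% of all probes, and 2 of 9 in D7E over DWTD, against 8.12%. The groups did not overlap for 4 of 9 member probes in DWTD over DWTA, for 5 of 9 in D7E over DWTA and for 2 of 9 in D7E over DWTD, where 28.7%, 31.5% and 14.2% of all probes did not. The 9 probes stand for 5 genes, so these counts are not of independent units. In D7E over DWTA, 3 of the 5 probes without overlap were Mef2c probes. In the comparisons with DWTD the widest differences among the members were those of Msc and Myf6, which lay in opposite directions. In D7E over DWTA those were the smallest of the 9, and the bright Myog probe and a Mef2c probe differed most.

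**Figure D1:**
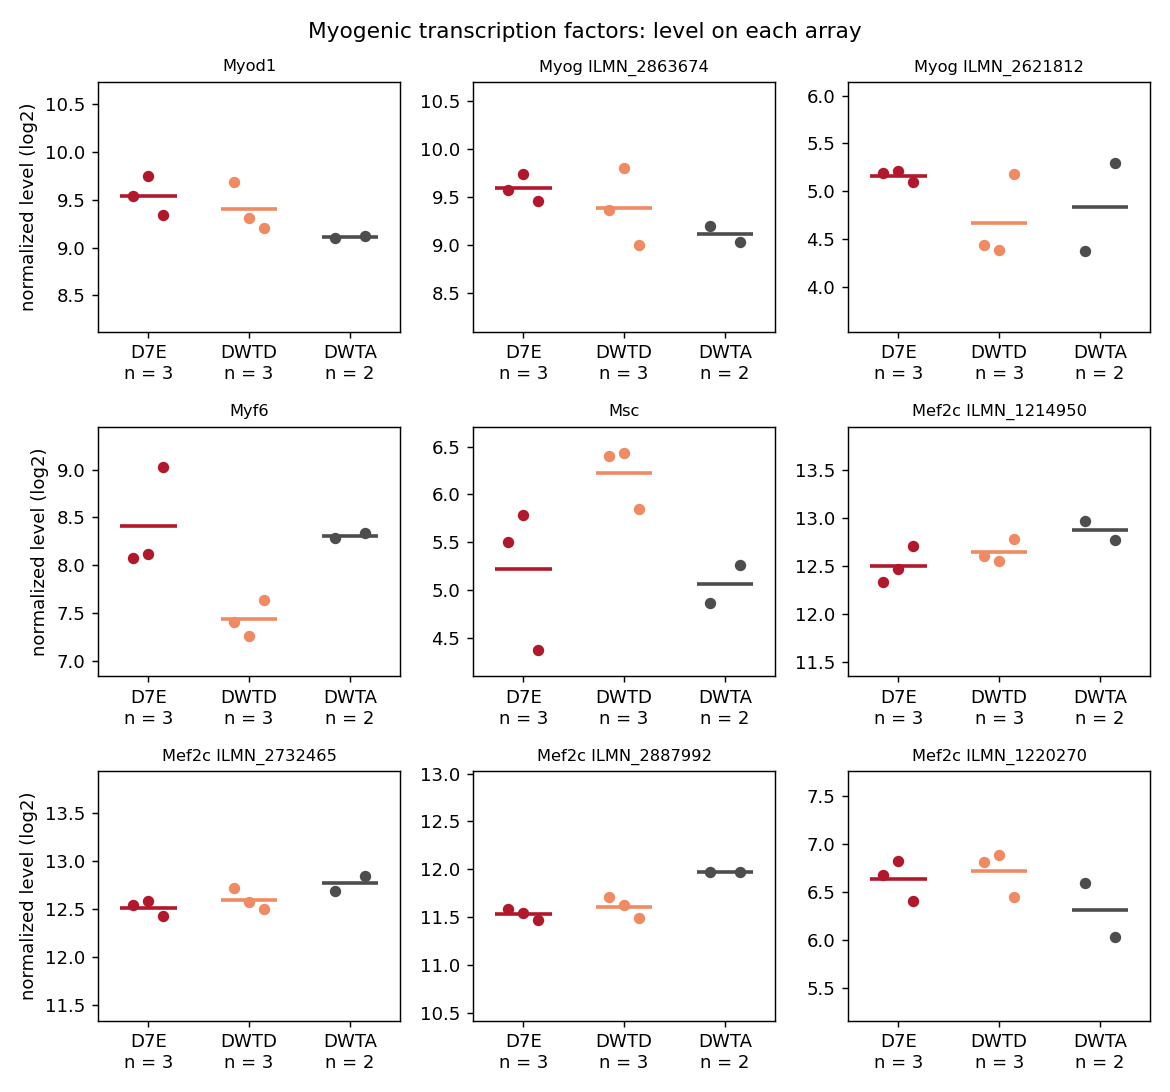
Normalized level (log2) of the 9 member probes above background, with a point for each array, a line at the group mean, and D7E, DWTD and DWTA from left to right. Each panel has its own range of levels. Msc is highest and Myf6 lowest on the 3 DWTD arrays, and D7E replicate 3 is the highest of all arrays for Myf6 and the lowest for Msc.

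Msc, the antagonist, had log2 levels of 5.51, 5.79 and 4.38 on the D7E arrays, 6.40, 6.43 and 5.85 on the DWTD arrays, and 4.87 and 5.26 on the DWTA arrays. All 3 DWTD arrays lay above all D7E and DWTA arrays, while D7E and DWTA overlapped. Before normalization the signals were 127, 151 and 97 in D7E, 121, 104 and 152 in DWTD, and 92 and 102 in DWTA. On that scale DWTD lay above DWTA but overlapped D7E. The median signal of all probes ran from 80 on DWTD replicate 1 to 96 on D7E replicate 2. On D7E replicate 3 the probe was not above background, with a detection p-value of 0.144. The group means were 5.22 ± 0.75 in D7E (SD, n = 3), 6.23 ± 0.33 in DWTD (SD, n = 3) and 5.06 ± 0.28 in DWTA (SD, n = 2). The DWTD over DWTA difference was 1.16 log2 units (SE 0.34, limma adjusted p = 0.132, 95% interval 0.42 to 1.90), a fold of 2.24. It was smaller without background correction (0.47, limma adjusted p = 0.146) and in the authors' normalized values (0.48, limma adjusted p = 0.147). The difference passed when this comparison's own table was normalized alone (1.08, limma adjusted p = 0.0446) and when D7E replicate 3 was left out (1.15, limma adjusted p = 0.0247). It missed under every other setting run apart from a replicate block. The D7E over DWTD difference was -1.005 (SE 0.30, limma adjusted p = 0.432). It was -0.58 without D7E replicate 3, -0.40 without background correction and -0.41 in the authors' values. With array medians centred it was -0.48, where the median of all probes moved by 0.40. Relative to that shift it was -0.88. The D7E over DWTA difference was 0.16 (SE 0.34, limma adjusted p = 0.908), with an interval from -0.58 to 0.90.

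Myf6, the late factor, had log2 levels of 8.08, 8.12 and 9.02 on the D7E arrays, 7.41, 7.27 and 7.64 on the DWTD arrays, and 8.28 and 8.34 on the DWTA arrays. The 3 DWTD arrays lay below all others, and D7E and DWTA overlapped. Before normalization the signals were 393, 483 and 674 in D7E, 178, 130 and 356 in DWTD, and 299 and 377 in DWTA. On that scale DWTD lay below D7E but overlapped DWTA. Group means of the log2 levels were 8.41 ± 0.53 in D7E (SD, n = 3), 7.44 ± 0.19 in DWTD (SD, n = 3) and 8.31 ± 0.04 in DWTA (SD, n = 2). DWTD over DWTA gave -0.87 (SE 0.26, limma adjusted p = 0.132, 95% interval -1.43 to -0.32), a level 1.83-fold lower in DWTD. Under the alternatives that left out no single array, it ran from -1.08 to -0.65. That difference passed when D7E replicate 3 was left out (limma adjusted p = 0.0271), a setting that removes no DWTD or DWTA array. D7E over DWTD gave 0.97 (SE 0.23, limma adjusted p = 0.252), and only 0.404% of the probes tested had a smaller p-value. Without D7E replicate 3 that difference was 0.66. D7E over DWTA gave 0.10 (SE 0.26, limma adjusted p = 0.928), and it was -0.21 without D7E replicate 3.

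Myod1, the lineage factor, had log2 levels of 9.54, 9.75 and 9.34 on the D7E arrays, 9.68, 9.31 and 9.20 on the DWTD arrays, and 9.10 and 9.12 on the DWTA arrays. Every D7E and DWTD array lay above the 2 DWTA arrays, and D7E overlapped DWTD. D7E over DWTA was 0.43 (SE 0.19, limma adjusted p = 0.378), a fold of 1.35, with a 95% interval from 0.02 to 0.84. DWTD over DWTA was 0.29 (SE 0.19, limma adjusted p = 0.552), and D7E over DWTD was 0.14 (limma adjusted p = 0.870). With only array medians centred they were 0.93, 0.048 and 0.89, where the median of all probes moved by 0.26, -0.086 and 0.40. Relative to that shift they were 0.67, 0.13 and 0.49. Leaving out DWTD replicate 1 brought DWTD over DWTA to 0.14.

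Myog, the differentiation factor whose promoter is printed above, was read by a bright and a dim probe. The bright probe ILMN_2863674 had log2 levels of 9.57, 9.74 and 9.45 on the D7E arrays, 9.37, 9.80 and 8.99 on the DWTD arrays, and 9.20 and 9.03 on the DWTA arrays. The D7E arrays lay above the DWTA arrays, and the DWTD arrays spanned both. D7E over DWTA was 0.47 (SE 0.22, limma adjusted p = 0.403), and DWTD over DWTA was 0.27 (SE 0.22, limma adjusted p = 0.639). With only array medians centred they were 0.98 and 0.048, where the median of all probes moved by 0.26 and -0.086. Relative to that shift they were 0.72 and 0.13. Leaving out 1 array moved DWTD over DWTA between 0.066 without DWTD replicate 2 and 0.47 without DWTD replicate 3. The dim probe ILMN_2621812 was above background on 5 of 8 arrays and ranged from 4.38 to 5.30. Its DWTD over DWTA difference was -0.17, opposite in sign to that of the bright probe, and its groups overlapped in every comparison.

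Myf5, the other early factor, was above background on 1 array only, DWTA replicate 1, at a log2 level of 4.99. Its remaining levels were 4.22, 4.36 and 4.20 in D7E, 4.42, 4.26 and 4.20 in DWTD, and 4.25 on the other DWTA array. The other DWTA array lay within the range of the D7E and DWTD arrays. The probe was not tested, and no fold is given, since the higher level was seen on that array alone.

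Mef2c, the Mef2 gene with the most probes, had bright signals on 3 of its 5 probes, and all 3 averaged lowest in D7E, next in DWTD and highest in DWTA, except that D7E was highest when only array medians were centred. ILMN_2887992 had log2 levels of 11.58, 11.55 and 11.47 in D7E, 11.71, 11.63 and 11.50 in DWTD, and 11.97 and 11.97 in DWTA. Every D7E and DWTD array lay below the DWTA arrays. D7E over DWTA was -0.44 (SE 0.16, limma adjusted p = 0.252), a level 1.36-fold lower in D7E, and DWTD over DWTA was -0.36 (SE 0.16, limma adjusted p = 0.314). The D7E over DWTA difference of this probe passed without background correction (-0.43, limma adjusted p = 0.0368) and in the authors' normalized values (-0.43, limma adjusted p = 0.0369), but it was 0.17 when only array medians were centred.

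The bright probe ILMN_1214950 had log2 levels of 12.33, 12.47 and 12.70 in D7E, 12.60, 12.55 and 12.78 in DWTD, and 12.97 and 12.77 in DWTA. ILMN_2732465 had 12.54, 12.58 and 12.42 in D7E, 12.72, 12.57 and 12.50 in DWTD, and 12.69 and 12.84 in DWTA. For both, D7E lay below DWTA and DWTD overlapped both groups. Their D7E over DWTA differences were -0.37 (limma adjusted p = 0.411) and -0.25 (limma adjusted p = 0.581). The dim probe ILMN_1220270, with log2 levels from 6.02 to 6.89, went the other way, with 0.33 in D7E over DWTA and 0.40 in DWTD over DWTA. The 4 probes share a gene, so they are not independent. When only array medians were centred, the 3 bright probes turned positive in D7E over DWTA, where the median of all probes moved by 0.26. Relative to that shift, ILMN_1214950 was at -0.01, ILMN_2732465 at 0.08 and ILMN_2887992 at -0.09.

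Mef2d, a Mef2 factor expressed in many tissues, and Pax7, the satellite cell factor, were above background on 0 of 8 arrays. Their log2 levels ranged from 4.14 to 4.26 and from 4.12 to 4.45. The Mef2c probe ILMN_2520812 was also above background on 0 arrays.

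**Figure D2:**
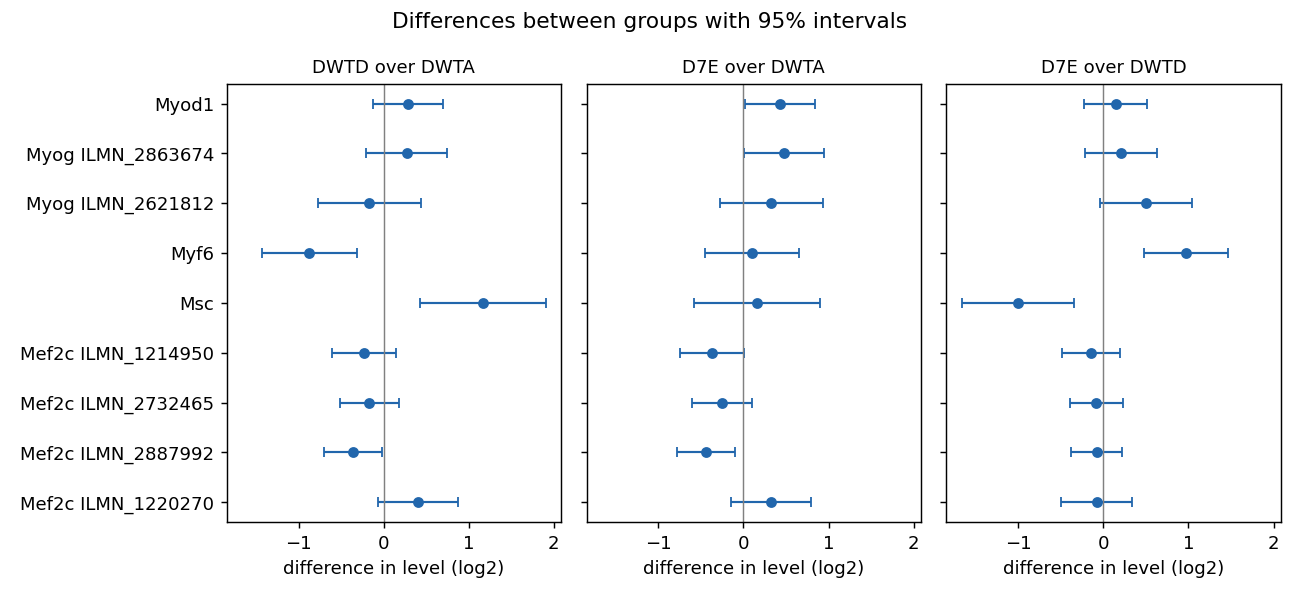
Difference in log2 level between groups for the 9 tested member probes, with 95% intervals from the limma fit, not adjusted for the number of probes. The intervals of Msc and Myf6 lie away from 0 in DWTD over DWTA and in D7E over DWTD, in opposite directions, and no probe passed the adjusted threshold.

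**Figure D3:**
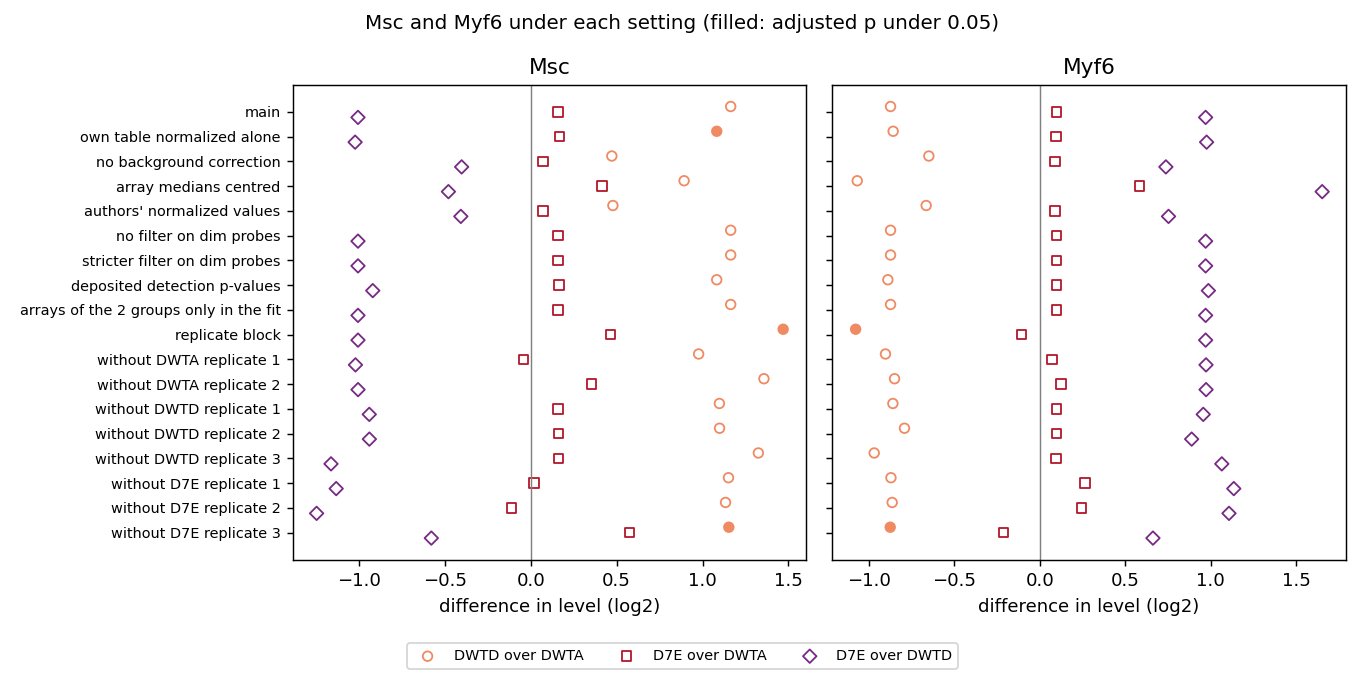
Difference in log2 level of Msc and Myf6 in each comparison under the 18 settings, with filled symbols where the adjusted p was under 0.05. The DWTD over DWTA symbols of Msc stay above 0 and those of Myf6 below 0 throughout, and the filled ones are 3 for Msc and 2 for Myf6.

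The genes around these factors were counted with 1 probe a gene, the brightest above background. Among all 10835 such genes, 1.62% were called in DWTD over DWTA, 0.535% in D7E over DWTA and 0.0461% in D7E over DWTD (limma, adjusted over all probes). Of the E proteins that pair with the muscle factors, 2 of 3 were tested and 0 were called in any comparison. Tcf12 was 0.10 higher in D7E and 0.25 higher in DWTD than in DWTA on the log2 scale, and Tcf3 was not above background. None of the 13 tested upstream regulators was called, and Pax3, which was not above background, was not tested.

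Of the inhibitors and competitors, 1 of 19 was called, and it was higher in DWTD. Hey1, a Notch-responsive repressor, had log2 levels of 7.13, 7.53 and 6.99 in D7E, above the DWTA arrays and below the DWTD arrays. Its D7E over DWTA difference was 0.44 (limma adjusted p = 0.336). The levels were 7.70, 7.72 and 7.67 in DWTD, against 6.74 and 6.81 in DWTA. The difference was 0.92 (limma adjusted p = 0.0302), and the call was lost without either DWTA array (adjusted p = 0.247 and 0.126), without DWTD replicate 1 (0.119) or 2 (0.0756) and without D7E replicate 1 (0.0556), and under 7 of 17 alternatives in all. The list's median was 0.15 in DWTD over DWTA, beside -0.0035 over all genes, and 13 of its 19 genes were above 0. Id1, which binds E proteins and keeps them from the muscle factors, was 0.76 higher in DWTD than in DWTA (limma adjusted p = 0.0788) and 0.65 higher in D7E than in DWTA (limma adjusted p = 0.171). Id2 was at 0.15 and -0.12 in the same comparisons. Id3 was not above background on either DWTA array, and it was tested only because of the D7E and DWTD arrays. Against the lowest level above background on the DWTA arrays, its mean was 1.51-fold higher in D7E and 1.42-fold higher in DWTD. These folds make no allowance for spread. The fit's 95% interval over DWTA began at 0.23 log2 units in D7E (limma adjusted p = 0.203). In DWTD it began at 0.15 (limma adjusted p = 0.220). None of Id1, Id2 and Id3 was called. Mdfi, which holds the muscle factors in the cytoplasm, had no annotated probe.

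Among the Mef2 relatives, cofactors and repressors, 1 of 26 was called, and it was lower in DWTD. Camk2d, a calcium and calmodulin dependent kinase, had log2 levels of 6.83, 6.53 and 7.05 in DWTD, against 7.81 and 7.81 in DWTA. The difference was -1.01 (limma adjusted p = 0.0214), and the call was lost without either DWTA array (adjusted p = 0.173 and 0.117) and without DWTD replicate 1 (0.0896) or 2 (0.0585), with no filter on dim probes (0.0771), with only the 2 groups fitted (0.0632) and with array medians centred. Its D7E over DWTA difference was -0.83 (limma adjusted p = 0.0716). That difference was called without DWTD replicate 3 (0.0447), without background correction (0.0306), in the authors' values (0.0320) and with only the 2 groups fitted (0.0484). The class II histone deacetylases that repress Mef2 were not called in any comparison, with Hdac4 at -0.48 and Hdac5 at -0.25 in D7E over DWTA. Hdac9, which is also a Mef2 target, was at 0.07. Hdac5 turned positive, at 0.25, when only array medians were centred, where the median of all probes moved by 0.26.

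Of 37 tested differentiation targets of Myod1 and Myog, 1 was called in DWTD over DWTA, and it was higher in DWTD. Cdkn1c, a cell cycle inhibitor, had log2 levels of 10.23, 10.30 and 8.24 in D7E, 11.33, 11.50 and 10.40 in DWTD, and 8.43 and 8.13 in DWTA. The DWTD over DWTA difference was 2.80 (limma adjusted p = 0.0213), and the call was lost without either DWTA array (adjusted p = 0.151 and 0.123) and without DWTD replicate 1 (0.0957) or 2 (0.0578). It was also lost without background correction (adjusted p = 0.0524), in the authors' values (0.0548), with no filter on dim probes (0.184) and with array medians centred. In D7E over DWTA it was 1.31 (limma adjusted p = 0.299), and 1.98 without D7E replicate 3 (limma adjusted p = 0.0144). The list's median in DWTD over DWTA was -0.07. Of these targets, Acta1 (skeletal actin) was at -0.10, Chrna1 (acetylcholine receptor) at -0.14 and Mymk (the fusion protein myomaker) at -0.25 in D7E over DWTA. Ckm (muscle creatine kinase) was at -0.58 and Cdkn1a at -0.03 in the same comparison. None of these 5 was called, and all 5 turned positive when only array medians were centred. Under that setting the median of all probes moved by 0.26 in D7E over DWTA. Ckm, at 0.011, stayed below that shift, and the others lay above it. Of the 12 tested Mef2 targets and the 12 tested myoblast and satellite cell markers, 0 were called in any comparison.

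**Figure D4:**
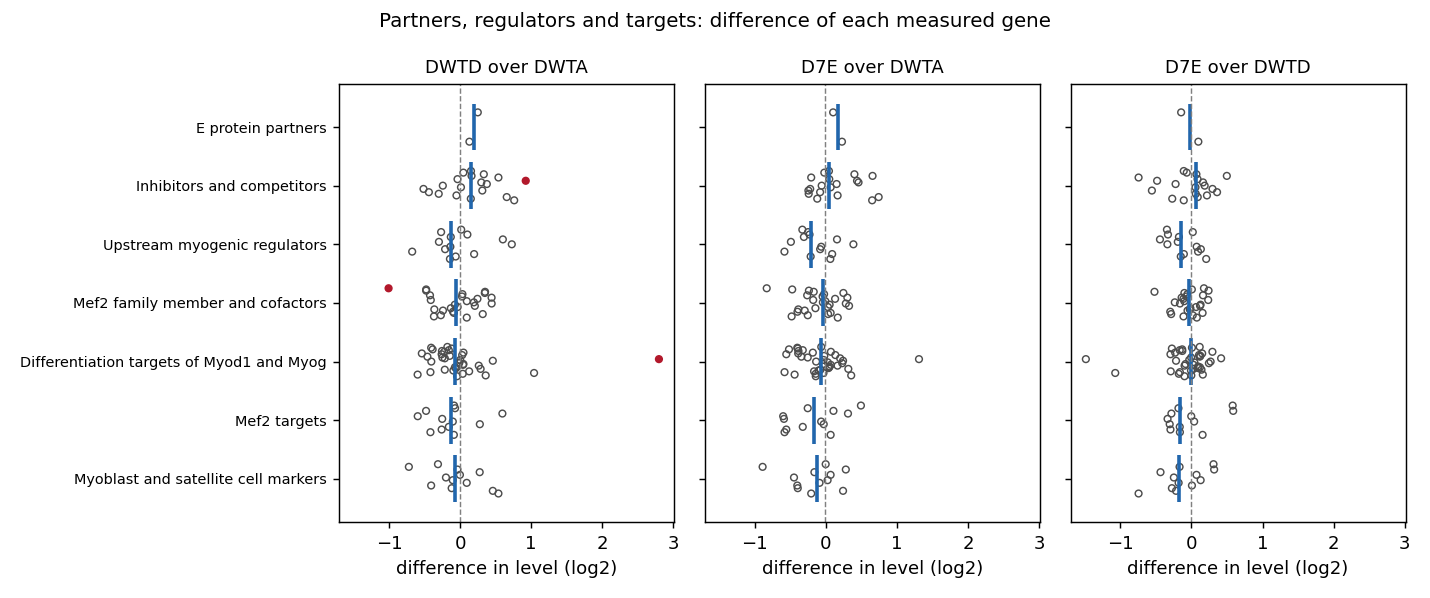
Difference in log2 level of each tested gene of the 7 lists around the myogenic factors, by comparison, with a blue line at the median of each list and red points where the adjusted p was under 0.05. The red points are Hey1, Camk2d and Cdkn1c, all in DWTD over DWTA.

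The myotube markers were abundant on every array. Their summed linear level over 12 measured genes of 14 was 171207 to 174494 in D7E, 166632 to 169502 in DWTD and 176103 to 187463 in DWTA, and 0 of the 12 were called. The proliferating cell markers, 4 measured of 8, summed to 125 to 132 in D7E, 177 to 257 in DWTD and 201 to 208 in DWTA, with none called. The fibroblast markers, 6 of 9, summed to 1980 to 2797 in D7E, 1767 to 2081 in DWTD and 2655 to 3169 in DWTA, with none called. The smooth muscle markers, 4 of 6, summed to 26772 to 28412 in D7E, 28315 to 31994 in DWTD and 25178 to 29737 in DWTA, and these ranges overlapped. Their median difference was 0.065 in D7E over DWTA and 0.17 in DWTD over DWTA. Of these markers only Tagln was called, in D7E over DWTA (1.34, limma adjusted p = 0.0188) and DWTD over DWTA (1.50, limma adjusted p = 0.00590). The adipocyte marker Lpl was called in DWTD over DWTA (0.98, limma adjusted p = 0.0257). Pparg, another of the 3 measured adipocyte markers, was at -0.82 in that comparison, not called. Of 17 alternatives, the Tagln call was lost under 6 in D7E, 4 of them with 1 array left out, and under 3 in DWTD. The Lpl call was lost under 8, 5 of them with 1 array left out. Tagln was 1 of 4 measured smooth muscle genes, and the part of either gene in the Msc and Myf6 differences was not tested. The mouse Pabpn1 probe, for which the files do not say whether it reads the FLAG-tagged transgene, had log2 levels of 9.16, 9.58 and 10.58 in D7E, 10.24, 10.26 and 9.87 in DWTD, and 9.24 and 9.18 in DWTA. It averaged 0.91 log2 units higher in DWTD, the group labelled low level, than in DWTA (limma adjusted p = 0.205), and those groups did not overlap, which runs opposite to the order of the labels. Without knowing what the probe reads, it does not settle the level of the transgene.

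Only Myf6 and Msc ranged by at least 1 log2 unit over the 8 arrays on their brightest probe, so likeness in pattern was searched for these, among 1137 genes above background on all 8 arrays that ranged as widely. Pearson correlations over the 8 arrays describe the arrays only, since the arrays fall into 3 groups and share D7E replicate 3. Most like Myf6 were Rgcc (0.986), Pgam1 (0.961) and Smtnl2 (0.955). Rgcc had log2 levels of 6.75, 6.63 and 7.69 in D7E, 6.12, 5.80 and 6.43 in DWTD, and 6.87 and 6.97 in DWTA. It was lowest in DWTD and highest on D7E replicate 3, as Myf6 was. Most like Msc were Ptgis (0.970), Rgs16 (0.962) and Fxyd6 (0.951). Ptgis, the prostacyclin synthase, had log2 levels of 7.46, 7.86 and 6.17 in D7E, 9.11, 9.01 and 8.13 in DWTD, and 7.24 and 7.05 in DWTA. It was highest in DWTD and lowest on D7E replicate 3.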

How the data were processed

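Signals were measured on Illumina mouse bead arrays after RNA Bee extraction, TotalPrep amplification and biotin labelling, per the labels' protocols. The deposited intensity values are non-normalized, per the file headers, and stand in 2 tables with a detection p-value for each signal, per the file headers. The deposited log2 values of the authors' matrix are quantile normalized, read from the values; for scanner software and other steps, nothing is given in the sources used here. The 2 DWTA arrays are identical in both tables and were counted once.

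The DWTD columns stood in another row order than the probe names. Their Spearman correlation with DWTA was -0.01 to 0.00 as deposited and 0.725 to 0.789 after all 45281 rank pairs of the DWTA arrays were matched to the authors' matrix; the D7E arrays gave 0.760 to 0.780. The detection p-values deposited for DWTD replicates 1 and 3 did not follow their own signals (Spearman -0.714 and -0.711), and were replaced by estimates from 23132 probes at background on the 6 other arrays. The same kind of estimate, made for each of those 6 from probes at background on the others of them, matched the deposited call for 97.3% to 98.8% of probes. On each of the 6 it put more probes above background than the deposited p-values did. On DWTD replicate 2 the counts were 14782 against 13653. Between 13653 and 17565 probes were above background per array, the 17565 on DWTD replicate 3 by its estimated p-values. The number of arrays limits the precision. Of all probes, 34885 have 1 gene symbol, 18 several and 10378 none.

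Background correction and quantile normalization (neqc, limma 3.58.1 in R 4.3.3, offset 16) were run over all 8 arrays, so that the 3 groups stand on 1 scale, and 1 limma model of the 3 groups was fitted to probes above background on at least 2 arrays. The fit was tested on simulated data. The 17 alternatives run include normalizing the arrays of each comparison alone. For the comparisons with DWTA these arrays are 1 own table, and for D7E over DWTD they come from both tables. Named genes were every member probe, list genes past the threshold, 16 genes named whatever their values, and the 3 most alike in pattern. The members, lists, motifs and settings were chosen with earlier results of these data known.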

Additional observations from a re-analysis of the deposited data

How the results depend on the processing

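The settings were the 17 alternatives, and of 459 member values under them 437 kept their direction and side of the threshold, 7 passed it and 15 changed sign. Leaving out 1 array gave 2 to 409 probes called in DWTD over DWTA (269 with all arrays), 0 to 186 in D7E over DWTA (107) and 0 to 72 in D7E over DWTD (5), and 0 to 2, 0 to 0 and 0 to 0 member probes. The 2 and the 0 of the DWTA comparisons came without DWTA replicate 1, 409 and 72 without DWTD replicate 3, and 186 without D7E replicate 3. In DWTD over DWTA, centring array medians gave 0 probes called, no filter on dim probes 62, and fitting only the arrays of the 2 groups 144. In D7E over DWTA, centring gave 0, own-table normalization 71, no background correction 276, the authors' values 276, no filter 59 and the replicate block 52. In D7E over DWTD, whose groups stand in different tables, normalizing only the arrays of these 2 groups gave 1, as did the stricter filter. No background correction and the authors' values gave 2 there. Centring, no filter, the deposited detection p-values and fitting 2 groups gave 0 there. The replicate block gave 311 probes called in DWTD over DWTA and 7 in D7E over DWTD. Member probes called were 1 with own-table normalization and 2 with the replicate block in DWTD over DWTA, and 1 without background correction and 1 in the authors' values in D7E over DWTA. Arrays of the same number did not deviate together (correlations -0.27 to 0.15). The deviations of the 2 DWTA arrays from their mean mirror each other, so these few values cannot settle whether the numbers pair the arrays. Under the replicate block, Msc was 1.47 (limma adjusted p = 0.0124) and Myf6 -1.08 (limma adjusted p = 0.0338) in DWTD over DWTA, and Myf6 was -0.11 and Cdkn1c 1.82 (limma adjusted p = 0.0289) in D7E over DWTA. Centring turned Mef2c to 0.25, 0.34 and 0.17 in D7E over DWTA and to 0.66, 0.64, 0.66 and 0.55 in D7E over DWTD, where the median of all probes moved by 0.40. That median moved by 0.26 in D7E over DWTA and by -0.086 in DWTD over DWTA. The cause was not tested. Leaving out 1 array, the dim Myog probe ran from -0.65 to 0.29 in DWTD over DWTA and from -0.13 to 0.79 in D7E over DWTA, Myf6 from -0.21 to 0.26 and Msc from -0.11 to 0.57 in D7E over DWTA, and the dim Mef2c probe from -0.21 to 0.033 in D7E over DWTD. Of the values of named list genes, 763 kept their direction and side of the threshold, 39 lost a call, 7 gained one and 55 changed sign. Own-table normalization turned Cdkn1a to -0.0023 in DWTD over DWTA. Leaving out background correction turned Cdkn1a to -0.0010 in DWTD over DWTA. Centring turned Cdkn1a to -0.25, Id2 to -0.0035 in DWTD over DWTA, and Acta1 to 0.47, Cdkn1a to 0.46, Chrna1 to 0.50, Ckm to 0.011, Hdac5 to 0.25, Id2 to 0.23, Mymk to 0.34 in D7E over DWTA, and Acta1 to 0.77, Cdkn1a to 0.71, Chrna1 to 0.65, Ckm to 0.61, Hdac4 to 0.51, Hey1 to 0.20, Id1 to 0.53, Id2 to 0.23, Lpl to 0.067, Mymk to 0.76, Tagln to 0.46, Tcf12 to 0.40 in D7E over DWTD. The replicate block turned Cdkn1a to -0.020 in DWTD over DWTA, and Hdac9 to -0.019 in D7E over DWTA. Leaving out 1 array gave Acta1 from -0.25 to 0.057, Cdkn1a from -0.15 to 0.15, Chrna1 from -0.13 to 0.044 in DWTD over DWTA, Acta1 from -0.26 to 0.048, Cdkn1a from -0.19 to 0.12, Hdac9 from -0.078 to 0.23, Id2 from -0.30 to 0.078, Tcf12 from -0.070 to 0.25 in D7E over DWTA, Acta1 from -0.041 to 0.057, Cdkn1a from -0.12 to 0.021, Hdac4 from -0.35 to 0.054, Hdac5 from -0.014 to 0.044, Id1 from -0.23 to 0.016, Id3 from -0.090 to 0.39, Mymk from -0.081 to 0.071, Tcf12 from -0.31 to 0.0067 in D7E over DWTD.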
